A study of Rattus norvegicus with 20 samples.

Results

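Abcg5 and Abcg8 encode the partner subunits of the pump that exports cholesterol and plant sterols from hepatocytes into bile. They were described here beside Abca1, Abcg1, Pltp and Mylip, which like the pump genes are known targets of the liver X receptors (LXR). These 6 genes are represented by 11 probe sets, out of 14217 genes and 31042 probe sets in all, with 4 probe sets annotated to Abca1, 3 to Abcg1 and 1 to each of the others. The set was chosen by the large fall of Abcg5 and Abcg8 at 994.6 mg/kg, so the values of the 6 genes at that dose are given as a description, without a test. Tests of the members against control use lower doses, and all of them share the same control arrays. These control arrays also entered the comparison at 994.6 mg/kg that chose the set, so the tests are not independent of that choice. Arrays of 994.6 mg/kg also entered the estimate of spread in the limma tests of single doses, though not in the slope over the lower doses.

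Liver RNA came from male Harlan Sprague-Dawley rats that were gavaged on each of 4 days with tricresyl phosphate (TCP), an organophosphate ester used as a plasticizer and flame retardant, in corn oil. The 5 control rats received corn oil at 0 mg/kg, and 3 rats each received 62.3, 124.5, 248.6, 497.3 or 994.6 mg/kg body weight. No age is given in the sources used here. Each array is 1 rat, per the labels, and replicate spread therefore includes differences between animals.

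LXR are nuclear receptors that pair with RXR and are activated by oxysterols, the oxidized forms of cholesterol. Among their known targets, Abcg5 and Abcg8 only work as a heterodimer in the canalicular membrane. Abca1 and Abcg1 load cholesterol onto high-density lipoprotein (HDL), and Pltp remodels HDL by phospholipid transfer. Mylip marks the LDL receptor for degradation. How far each of these genes responds to LXR in rat liver was not measured here. LXR also raise the lipogenic regulator Srebf1 in liver, and in rodents Cyp7a1, which sets the pace of bile acid synthesis.

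Abcg5 and Abcg8 lie head to head on rat chromosome 6 and are read in opposite directions. Their annotated start sites are 206 bases apart, and the 205 bases between them, which both genes share as upstream sequence, are shown because the results turn on this gene pair. The sequence is from RefSeq, build GRCr8, chr6:15717731-15717935, on the plus strand, which is the strand of Abcg5, with each GATAA in capitals.
Abcg8-Abcg5 intergenic: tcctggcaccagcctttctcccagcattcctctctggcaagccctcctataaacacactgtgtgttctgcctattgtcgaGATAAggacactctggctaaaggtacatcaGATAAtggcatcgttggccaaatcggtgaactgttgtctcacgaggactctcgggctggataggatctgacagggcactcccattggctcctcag

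The promoter windows searched run from 250 bases before to 50 bases after each start site, on both strands. GATAA, the core letters of the GATA factor motif, occurred at 2 places in the pump window, beginning 125 and 95 bases before the Abcg5 start site, and 26.5% of 33469 rat promoter windows hold it. AGGTCA, the hexamer bound by nuclear receptors (16.2% of windows), was not found in the windows of the 5 members that have one, and neither was AGGTCA repeated after 4 bases, the spacing used by LXR (0.00598%), or after 1 base, the spacing used by Hnf4a (0.0538%). Allowing GGGTCA or AGTTCA in place of either copy of the LXR-spaced repeat (0.0627%) gave no match either. CACGTG, the E-box (6.42%), occurred 1 time, in the Abca1 window. A match is a string of letters in these windows only. The repeats are so rare over all windows that nothing is read from their absence here.

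Array medians lay between 6.31 and 6.41 on the deposited log2 scale, and arrays of a group correlated at 0.987 to 0.995. Replicate 1 of 994.6 mg/kg stood apart, at 37.1 on the first principal component (20.1% of the variance) against -14.1 to 9.14 for the other arrays. The livers had high values of hepatocyte transcripts, with albumin (Alb) averaging 15.3 and transthyretin (Ttr) 14.9. RNA integrity was read from the GAPDH control transcript, as its 3' value minus its 5' value, and this was 0.755 to 2.58 at 124.5 mg/kg, 0.612 to 1.11 at the other doses and 1.13 to 1.56 in control.

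The liver transcripts of both pump subunits were lower at 497.3 mg/kg than in control. Abcg5, the subunit also called sterolin-1, had log2 values of 6.898, 7.502 and 6.736 at 497.3 mg/kg, against 8.922, 9.46, 9.099, 8.087 and 8.991 in control. Abcg8, sterolin-2, had log2 values of 5.475, 5.572 and 5.159 at 497.3 mg/kg, against 6.967, 7.391, 7.293, 6.658 and 7.179 in control. The groups did not overlap for either gene, and control replicate 4 was the lowest control array for both. The share of all genes whose arrays separate this way is not given here. Separation from the control arrays is therefore a description at every dose, and nothing is read from it.

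Abcg5 fell by 1.87 ± 0.32 on the log2 scale at 497.3 mg/kg (limma estimate ± SE, adjusted p = 0.00827), to 27.4% of the control level or 3.65-fold lower. Abcg8 fell by 1.70 ± 0.23 (limma adjusted p = 0.0012), to 30.9% or 3.24-fold lower. Ordered from the largest fall, they ranked 4 and 5 among the 14217 genes. At this dose 2 of the 6 members were called, against 0.732% of all genes (0.218% called lower and 0.513% called higher), where called means a Benjamini-Hochberg adjusted p under 0.05 over all genes. Without replicate 3 of 497.3 mg/kg the call of Abcg5 ended (-1.71, limma adjusted p = 0.0548), while Abcg8 remained called without any 1 array. Averaged over all arrays, Abcg8 stood at 6.23, with 47.45% of probe sets lower, and Abcg5 at 7.94, with 73.4% lower. Whether this lower level bears on the size of the Abcg8 fall, or on its difference from that of Abcg5, was not tested.

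**Figure D1:**
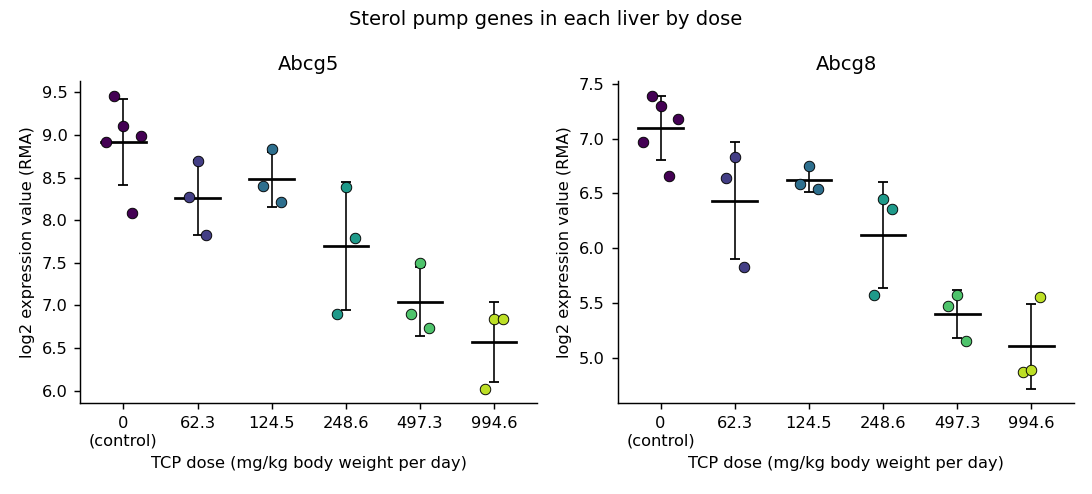
Log2 expression value of Abcg5 (left) and Abcg8 (right) in each liver, by TCP dose in mg/kg body weight per day. Points are single arrays, horizontal lines group means and error bars 1 SD (n = 5 for control, n = 3 for each dose). As a description, all 3 arrays of 497.3 and of 994.6 mg/kg lie below all 5 control arrays for both genes.

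At 248.6 mg/kg the pump genes stood lower than in control on average, and neither passed the test. Abcg5 had log2 values of 6.904, 8.389 and 7.793 there, with 2 of 3 arrays below every control array. Abcg8 had 5.57, 6.452 and 6.354, with all 3 arrays below the lowest control array at 6.658. Replicate 1 was the low array for both genes, near the values seen at 497.3 mg/kg. The change of Abcg5 was -1.22 ± 0.32 (limma adjusted p = 0.445) and that of Abcg8 -0.97 ± 0.23 (limma adjusted p = 0.29), at 43.0% and 51.0% of the control level. At this dose 0 of the 6 members and 0.0563% of all genes were called with limma, and 945 genes (6.65%) had an unadjusted p under 0.05, Abcg5 and Abcg8 among them.

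The lowest doses gave smaller differences. At 62.3 mg/kg Abcg5 had log2 values of 8.272, 8.699 and 7.821 and Abcg8 had 6.639, 6.836 and 5.828. At 124.5 mg/kg Abcg5 had 8.399, 8.829 and 8.207 and Abcg8 had 6.584, 6.754 and 6.537. Both doses overlapped the control arrays for both genes, and replicate 3 of 62.3 mg/kg was the low array of its group for each gene. Abcg8 had 2 of 3 arrays below every control array at each of these doses. Abcg5 had 1 of 3 at 62.3 mg/kg and 0 of 3 at 124.5 mg/kg. The changes against control were -0.65 ± 0.32 for Abcg5 and -0.66 ± 0.23 for Abcg8 at 62.3 mg/kg, and -0.43 ± 0.32 and -0.47 ± 0.23 at 124.5 mg/kg (limma adjusted p = 0.938 or more for each). Without replicate 3 of 62.3 mg/kg the changes at that dose were -0.43 for Abcg5 and -0.36 for Abcg8. With limma 0 of the 6 members were called at either dose, against 0.0% of all genes at 62.3 mg/kg and 0.00703% at 124.5 mg/kg. At an unadjusted p under 0.05 the counts over all genes were 349 (2.45%) and 717 (5.04%), and Abcg8 at 62.3 mg/kg was the only member among them.

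A slope per dose step was fitted over control and the 4 lower doses, leaving out all arrays of 994.6 mg/kg. Its control arrays are those of the comparison that chose the set. Abcg5 fell by 0.43 ± 0.07 per step (limma adjusted p = 0.00431) and Abcg8 by 0.37 ± 0.06 per step (limma adjusted p = 0.00138). These were the only members called in the trend, 2 of 6, against 1.28% of all genes. Slopes of the other members were -0.08 ± 0.06 for Abca1, 0.06 ± 0.04 for Mylip, -0.01 ± 0.03 for Pltp and 0.0006 ± 0.03 for Abcg1 (limma adjusted p = 0.478 or more for each).

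At 994.6 mg/kg, the dose that selected the pump genes, Abcg5 had log2 values of 6.023, 6.838 and 6.845 and Abcg8 had 4.877, 4.891 and 5.552. All of these lay below every control array. Against control the change was -2.34 ± 0.32 for Abcg5 (5.07-fold lower, 19.7% of the control level) and -1.99 ± 0.23 for Abcg8 (3.97-fold lower, 25.2%). Without replicate 1, the array that stood apart, the changes were -2.07 and -1.88. At this dose 3 of the 6 members (Abcg5, Abcg8 and Pltp) were among the 4.47% of genes called, of which 2.5% were higher and 1.96% lower, and nothing is read from that count.

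By group mean the levels of each pump gene ran lowest at 994.6, then 497.3, 248.6, 62.3 and 124.5 mg/kg, with control highest. Livers of 124.5 mg/kg stood above those of 62.3 mg/kg by 0.21 ± 0.36 for Abcg5 and 0.19 ± 0.26 for Abcg8, within the spread. Those of 248.6 mg/kg differed from those of 124.5 mg/kg by -0.78 ± 0.36 for Abcg5 and -0.50 ± 0.26 for Abcg8 (limma adjusted p = 1.0 for each). The difference of 497.3 from 248.6 mg/kg was -0.65 ± 0.36 for Abcg5 and -0.72 ± 0.26 for Abcg8 (limma adjusted p = 1.0 for each), a comparison in which 0.00703% of all genes were called. The difference of 994.6 from 497.3 mg/kg was -0.48 ± 0.36 for Abcg5 and -0.30 ± 0.26 for Abcg8, given as a description, where 0.0211% of all genes were called.

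Transcripts of other cell types were read beside the fall of the pump. Over all genes 12.2% had an unadjusted p under 0.05 at 497.3 mg/kg and 18.6% at 994.6 mg/kg, which stand beside the list counts given here and further on. Red blood cell markers ran the same way: the mean of the 3 measured genes of that list was 8.66 to 8.86 at 497.3 mg/kg and 7.39 to 8.51 at 994.6 mg/kg, against 9.25 to 9.45 in control. Hbb, Alas2 and Ahsp were all called lower at 994.6 mg/kg and none at 497.3 mg/kg, where all 3 had an unadjusted p under 0.05. The list mean correlated with the pump at r = 0.793 over 20 arrays that share the dose. The mean of 7 hepatocyte markers was 13.66 to 13.86 at 497.3 mg/kg and 13.7 to 13.75 at 994.6 mg/kg, against 13.69 to 13.83 in control. With limma 0 of them were called at either dose, and 0 and 3 had an unadjusted p under 0.05.

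Of the 11 macrophage, 5 endothelial, 6 stellate and 4 lymphocyte markers measured, 0 were called at 497.3 or 994.6 mg/kg with limma (at an unadjusted p under 0.05, 1, 0, 1 and 1 at 497.3 mg/kg and 0 of each at 994.6 mg/kg). Epcam was the only one of 4 bile duct markers called, higher by 0.86 ± 0.14 at 497.3 mg/kg (limma adjusted p = 0.00476) and by 0.69 ± 0.14 at 994.6 mg/kg (limma adjusted p = 0.00632). At an unadjusted p under 0.05 the bile duct list had 3 of 4 genes at 497.3 mg/kg and 1 at 994.6 mg/kg, and its mean was 7.07 to 7.96 at 497.3 mg/kg and 7.06 to 7.23 at 994.6 mg/kg, against 6.64 to 7.06 in control. With the GAPDH difference as a covariate the falls of Abcg5 (-1.61, limma adjusted p = 0.0345) and Abcg8 (-1.58, limma adjusted p = 0.00863) at 497.3 mg/kg were still called. The part of the red blood cell markers, of the bile duct markers and of RNA integrity in the pump values was not tested further, and in whole liver pieces fewer cells of a type and less RNA per cell cannot be told apart.

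Abcg5 and Abcg8 were then compared array by array, since the subunits are used as a pair. In each array the Abcg8 value was subtracted from the Abcg5 value, and the mean difference at each dose was set against that of control. The change of Abcg5 minus that of Abcg8 was 0.02 at 62.3, 0.04 at 124.5, -0.24 at 248.6, -0.17 at 497.3 and -0.35 at 994.6 mg/kg. The value at 994.6 mg/kg is a description, with no test. Exact two-sided permutation tests at the 4 lower doses gave p = 0.964, 0.857, 0.321 and 0.393 in the same order, and 0.786 to 0.964 adjusted over these doses, where 3 arrays against 5 can reach 0.0357 at the lowest. The 95% interval at 497.3 mg/kg was -0.61 to 0.27, so the data leave room for unequal falls of that size.

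The subunits also varied together among livers of the same dose. After each group's mean was removed, the deviations of Abcg5 and Abcg8 had the same sign in 17 of 20 arrays. Control replicate 4 lay -0.82 from its group mean for Abcg5 and -0.44 for Abcg8, and replicate 1 of 248.6 mg/kg deviated by -0.79 and -0.56. The largest upward deviation was in replicate 2 of 248.6 mg/kg for Abcg5, at 0.69 with 0.33 for Abcg8. For Abcg8 it was in replicate 3 of 994.6 mg/kg, at 0.45 with 0.28 for Abcg5. Replicate 2 lay above its group mean for Abcg5 in every group, by 0.27 to 0.69. For Abcg8 it did so in every group but 994.6 mg/kg, where it lay at -0.22. No label says what the replicate numbers mean, and the permutations below treat arrays of a group as exchangeable.

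Over the 20 arrays the deviations correlated at Pearson r = 0.839 (permutation p = 7e-05 with arrays permuted within groups, 0.00105 adjusted over all 15 pairs of members) and Spearman rho = 0.823 (permutation p = 0.00016, adjusted 0.0024). Without the 2 arrays farthest from the median of Abcg5, r was 0.761. Leaving out any 1 array gave r of 0.782 to 0.905. The 17 arrays without those of 994.6 mg/kg gave 0.894 (permutation p = 5e-05, the smallest that the fewer permutations used there can give). None of the other 14 pairs of members passed: the largest was Abcg1 with Mylip (r = 0.558, rho = 0.55, adjusted permutation p = 0.37 and 0.209), followed by Abcg8 with Pltp (r = 0.513, rho = 0.51, adjusted permutation p = 0.37 and 0.301).

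**Figure D2:**
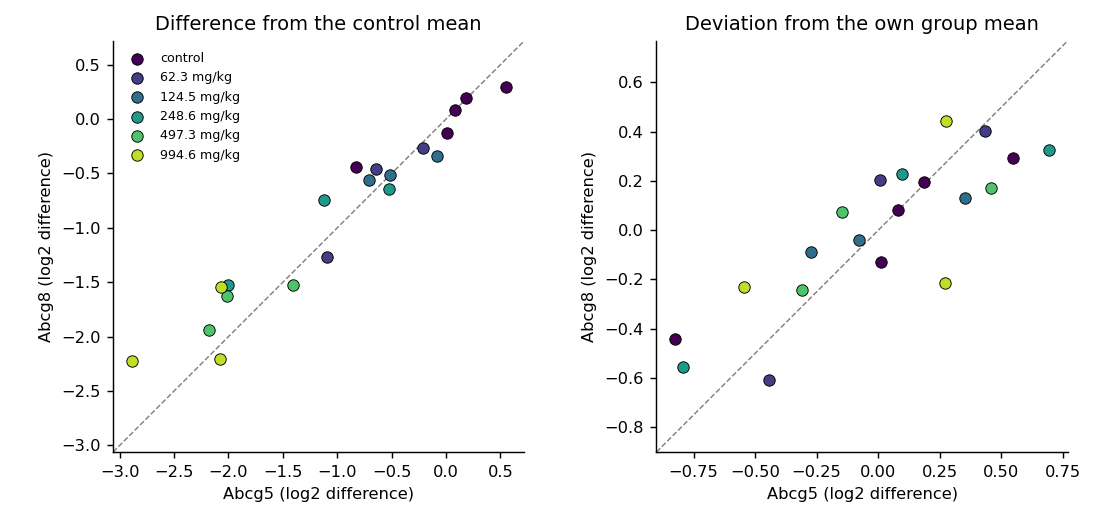
Abcg8 against Abcg5 in each of the 20 livers, as log2 differences from the control mean (left) and from the mean of the liver's own dose group (right), coloured by dose. The dashed line marks equal differences. Points follow the line in both panels, and 17 of 20 arrays deviate with the same sign from their group means.

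The other LXR targets of the set were not called at 497.3 mg/kg. Abca1, the exporter that builds nascent HDL, had log2 values of 10.898, 9.834 and 10.757 in probe set 1382431_at at 497.3 mg/kg, against 10.534, 10.801, 10.854, 11.128 and 11.082 in control. Abcg1, which passes cholesterol to mature HDL, had 8.168, 8.113 and 8.143 at 497.3 mg/kg, against 8.327, 7.674, 8.179, 8.168 and 8.065 in control. For Abca1 only replicate 2 lay below the controls, and for Abcg1 the groups overlapped fully.

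Pltp, the phospholipid transfer protein, had log2 values of 9.658, 9.722 and 9.42 at 497.3 mg/kg, against 9.615, 9.267, 9.728, 9.613 and 9.539 in control. Mylip, the ubiquitin ligase also called Idol, had 6.702, 6.412 and 6.09 at 497.3 mg/kg, against 5.796, 5.886, 6.519, 6.274 and 6.007 in control. The groups overlapped for both genes. The changes with their 95% intervals were -0.38 (-0.91 to 0.14) for Abca1, 0.06 (-0.21 to 0.33) for Abcg1, 0.05 (-0.21 to 0.30) for Pltp and 0.30 (-0.10 to 0.71) for Mylip (limma adjusted p = 0.574 to 0.931). The change of Abca1 was -0.052 without replicate 2 of 497.3 mg/kg, -0.58 without replicate 1 of that dose and -0.050 by the mean of its probe sets. Each of the 4 intervals lies above the falls of Abcg5 and Abcg8.

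The difference between the genes was taken within arrays at 497.3 mg/kg, in 8 comparisons of a pump gene with another member. These were chosen after the values were seen, so their p-values are a description and are no support for a difference. The change of Abcg5 minus that of the other gene was -1.93 for Abcg1, -1.91 for Pltp and -2.17 for Mylip, and for Abcg8 these differences were -1.75, -1.74 and -2.0 (exact two-sided permutation p = 0.0357 each, the smallest the design allows, 0.0476 adjusted over the 8). Against Abca1 the difference was -1.48 for Abcg5 and -1.31 for Abcg8 (exact two-sided permutation p = 0.0714, adjusted 0.0714). With the mean of all Abca1 probe sets the difference from Abcg8 stood at -1.65 (adjusted exact p = 0.0408).

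At the 3 lower doses these 4 genes, each by its probe set of highest mean, changed by -0.11 to 0.22 on the log2 scale and none was called. Another probe set of Abca1, 1394490_at, stood at 0.53 ± 0.43 at 62.3 mg/kg. Mylip was higher than in control on average at every dose, by 0.16 to 0.30, with overlap at each, but at 994.6 mg/kg it stood at -0.027 without replicate 1 of that dose and at -0.024 with array weights. At 994.6 mg/kg Pltp had log2 values of 8.925, 8.979 and 9.334, with 2 of 3 arrays below the lowest control array at 9.267, and a change of -0.47 ± 0.12 (-0.40 without replicate 1). At 497.3 mg/kg it had stood at 0.05, and the difference between these doses was -0.52 ± 0.14. The changes of the others at 994.6 mg/kg were 0.33 ± 0.25 for Abca1, 0.18 ± 0.13 for Abcg1 and 0.16 ± 0.19 for Mylip.

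**Figure D3:**
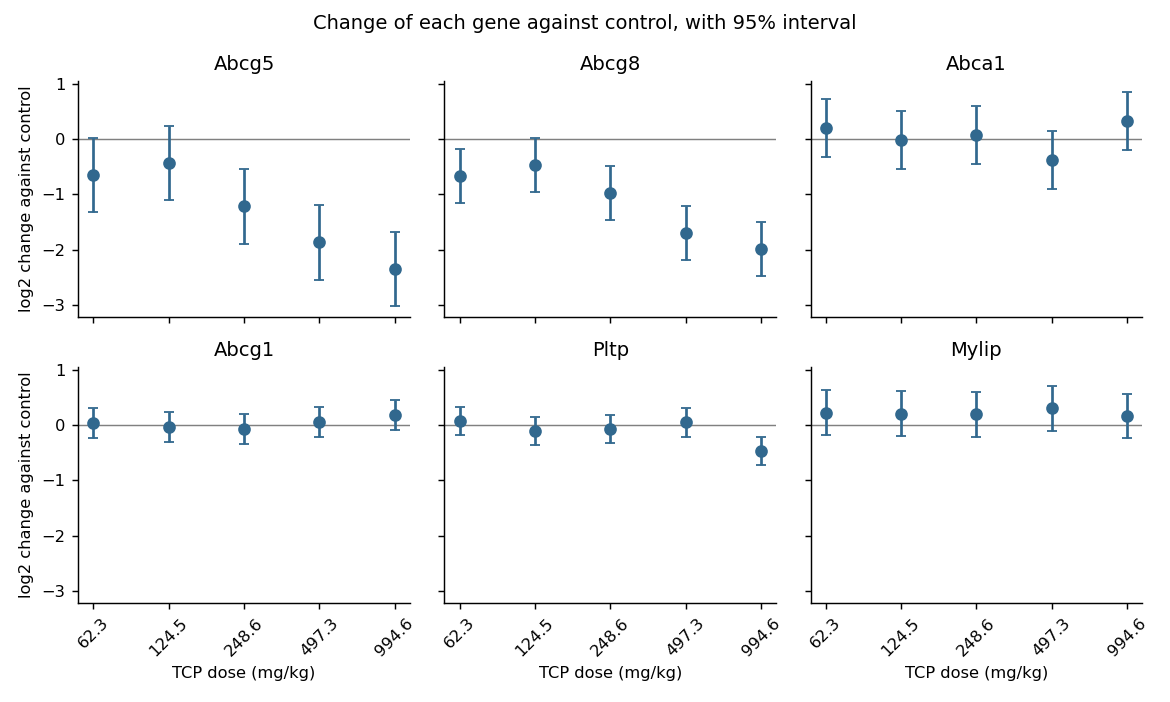
Log2 change of each of the 6 genes against control at each TCP dose in mg/kg, with the 95% interval of the limma fit (n = 3 arrays per dose, 5 in control). Intervals at 994.6 mg/kg are a description. Abcg5 and Abcg8 descend to -2.34 and -1.99 at 994.6 mg/kg, whereas the other genes, each by its probe set of highest mean, stay between -0.47 and 0.33. The probe sets of Abca1 not drawn here range from -0.43 to 0.62 at that dose.

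The 4 probe sets annotated to Abca1 did not measure 1 common pattern. Over the 20 arrays 1382431_at and 1394490_at correlated at r = 0.922 and 1383355_at and 1384381_at at r = 0.847, while correlations across these pairs ran from -0.640 to -0.302. At 994.6 mg/kg the first pair stood at 0.33 ± 0.25 and 0.62 ± 0.43 and the second at -0.43 ± 0.14 and -0.33 ± 0.16. At 497.3 mg/kg the signs were opposite, with -0.38 ± 0.25 and -0.41 ± 0.43 in the first pair and 0.25 ± 0.14 and 0.35 ± 0.16 in the second (limma adjusted p over all probe sets = 0.448 to 0.814).

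In 1394490_at replicate 2 of 497.3 mg/kg had a log2 value of 5.23, against 7.346 and 6.975 in the other arrays of that dose and 6.389 to 7.52 in control. The same liver was the low array of 1382431_at, at 9.834, and had the highest value of its dose in 1383355_at, at 10.373, and in 1384381_at, at 7.651. A direction for Abca1 thus depends on the probe set at both of the highest doses. The 3 probe sets of Abcg1 changed by -0.11 to 0.06 at 497.3 mg/kg and by -0.002 to 0.18 at 994.6 mg/kg and correlated at -0.324 to 0.212, within a narrow range of values.

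**Figure D4:**
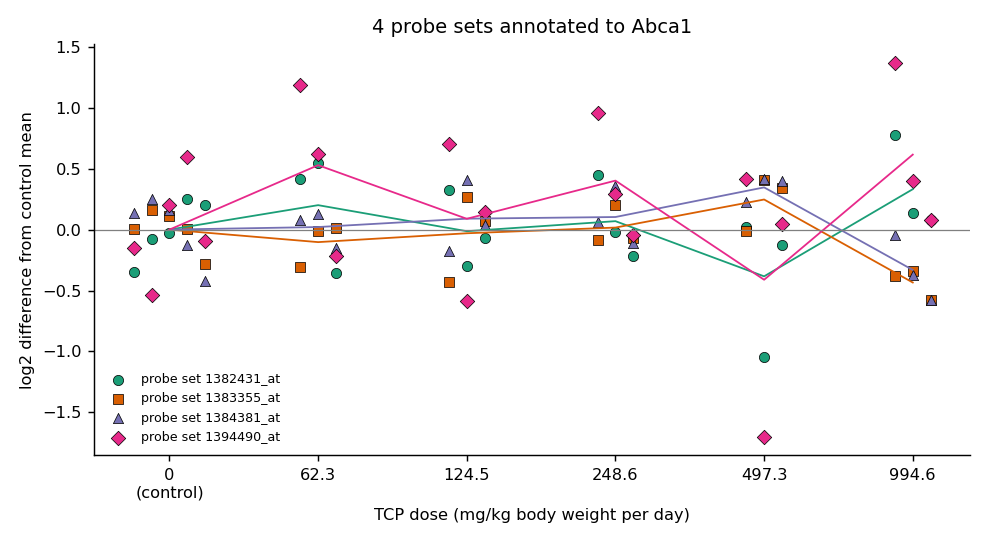
Log2 difference from the control mean for the 4 probe sets annotated to Abca1, by TCP dose in mg/kg body weight per day. Points are single arrays and lines join group means. Replicate 2 of 497.3 mg/kg is the low point of 1382431_at and 1394490_at, and at 994.6 mg/kg the 2 pairs of probe sets lie on opposite sides of 0.

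The receptors known to act on these genes and other sterol genes were read as 7 lists written from general knowledge. Among 8 measured genes of LXR and its partners, 0 were called at 497.3 or 994.6 mg/kg with limma, and 1 and 0 had an unadjusted p under 0.05. Nr1h3, the LXR isoform abundant in liver, stood at 0.04 ± 0.08 at 994.6 mg/kg and Nr1h2, the ubiquitous isoform, at -0.03 ± 0.10. The partners with the largest changes were the corepressor Nrip1, at 0.20 ± 0.17, and the coactivator subunit Med1, at -0.11 ± 0.26. The median of the list was -0.02 at 994.6 mg/kg, beside -0.01 for all genes.

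Of 15 other LXR targets, 1 was called at 994.6 mg/kg, beside 4.47% of all genes, with a list median of 0.02 beside -0.01 for all genes. At 497.3 mg/kg 1 was called higher and 1 lower, beside 0.513% and 0.218% of all genes. The trend also had 1 called higher and 1 lower, beside 1.28% of all genes called. Nr1h3 is counted in this list as well as among LXR and its partners. At an unadjusted p under 0.05 there were 6 of the 15 at 497.3 mg/kg and 8 at 994.6 mg/kg, and at each dose 8 of the 15 stood above control and 7 below. The gene called at 994.6 mg/kg was Cyp7a1, which had log2 values of 11.3 to 12.3 at 497.3 mg/kg and 12.1 to 12.6 at 994.6 mg/kg, against 9.33 to 10.7 in control. Cyp7a1 rose by 1.55 ± 0.32 at 497.3 mg/kg (limma adjusted p = 0.0258) and by 2.23 ± 0.32 at 994.6 mg/kg (limma adjusted p = 0.000474), and by 0.40 ± 0.07 per step in the trend (limma adjusted p = 0.00826). Its call at 497.3 mg/kg ended without control replicate 3 or 5 or without replicate 2 or 3 of the dose (limma adjusted p = 0.0602 to 0.134), and with trend and robust eBayes (0.062).

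Scd, the stearoyl-CoA desaturase, was the only other gene of that list called in any of these comparisons and is named after its values were seen. It fell by 2.45 ± 0.53 at 497.3 mg/kg (limma adjusted p = 0.0382) and by 0.65 ± 0.11 per step (limma adjusted p = 0.00385), and stood at -1.59 ± 0.53 at 994.6 mg/kg (limma adjusted p = 0.096). Its call at 497.3 mg/kg ended without any 1 of the 3 arrays of that dose, without any of control replicates 1, 2, 3 and 5, and also when the GAPDH difference was a covariate (limma adjusted p = 0.0699 to 0.143), and also without replicate 2 or 3 of 248.6 mg/kg (0.0527 and 0.0507). The call ended too with median centring (limma adjusted p = 0.0504) and with trend and robust eBayes (limma adjusted p = 0.0843). Srebf1, the lipogenic regulator, stood at 0.03 ± 0.18 at 497.3 mg/kg and -0.16 ± 0.18 at 994.6 mg/kg.

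Factors known from human cells or mice to act on the ABCG5 and ABCG8 promoter region were measured in 8 cases, and 0 were called at 497.3 or 994.6 mg/kg with limma (0 and 1 at an unadjusted p under 0.05). Nr5a2, the liver receptor homolog, stood at 0.11 ± 0.11 at 994.6 mg/kg, Hnf4a at -0.27 ± 0.10 (limma adjusted p = 0.132, unadjusted p = 0.0136), Gata6 at 0.36 ± 0.20 and Nr0b2, the bile acid induced repressor SHP, at -0.68 ± 0.55. Nr0b2 ran from 6.33 to 9.10 over the 3 arrays of 994.6 mg/kg, against 8.50 to 9.27 in control. Without replicate 1 its change was 0.24, so its direction rests on that liver. Hnf4a by the mean of its probe sets stood at 0.01.

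Among 13 canalicular pumps and sterol transport genes, 1 rose and 2 fell at 994.6 mg/kg, beside 2.5% of all genes called higher and 1.96% lower, with a median of -0.12. With limma 0 were called at 497.3 mg/kg, and 3 of the 13 at 497.3 mg/kg and 5 at 994.6 mg/kg had an unadjusted p under 0.05. Atp8b1, the aminophospholipid flippase of the canalicular membrane, rose by 0.51 ± 0.12 (limma adjusted p = 0.0194). Abcb4, which exports phosphatidylcholine into bile beside the sterol pump, fell by 0.58 ± 0.13 (limma adjusted p = 0.0172), and Stard5, a cytosolic sterol carrier, by 0.69 ± 0.13 (limma adjusted p = 0.00556). Abcb11, the bile salt export pump, stood at 0.01 ± 0.08 at 497.3 mg/kg and 0.02 ± 0.08 at 994.6 mg/kg. Without replicate 1 of 994.6 mg/kg 0 of the 13 were called: Abcb4 then stood at -0.34 (limma adjusted p = 0.13), Stard5 at -0.55 (0.0606) and Atp8b1 at 0.43 (0.144).

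Oxysterol formation and sterol esterification had 1 of 10 genes called at 994.6 mg/kg, beside 4.47% of all genes, and 2 at each of the highest doses had an unadjusted p under 0.05. Nceh1, a cholesteryl ester hydrolase, rose by 1.30 ± 0.28 (limma adjusted p = 0.0105), at 8.85 to 9.20 against 7.42 to 8.20 in control. HDL and lipoprotein partners had 1 of 9 called (1 at 497.3 mg/kg and 2 at 994.6 mg/kg at an unadjusted p under 0.05), hepatic lipase Lipc, which fell by 0.45 ± 0.09 (limma adjusted p = 0.00798), at 12.3 to 12.6 against 12.8 to 13.0 in control. Neither remained called without replicate 1 of 994.6 mg/kg (1.24, limma adjusted p = 0.0687, and -0.38, limma adjusted p = 0.0803). The 9 SREBP2 targets of cholesterol synthesis had 0 called at 497.3 or 994.6 mg/kg with limma (2 and 5 at an unadjusted p under 0.05, beside 12.2% and 18.6% of all genes). Their median was 0.26 at 994.6 mg/kg, where 6 stood above control and 3 below. The largest changes there were those of Sqle (0.49 ± 0.17, limma adjusted p = 0.102, unadjusted p = 0.00876) and Idi1 (0.47 ± 0.16, limma adjusted p = 0.0908, unadjusted p = 0.00688). Insig1, named after its values were seen, went the other way. It stood at -1.29 ± 0.31 at 497.3 mg/kg (limma adjusted p = 0.069, unadjusted p = 0.000568) and -0.31 ± 0.31 at 994.6 mg/kg.

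**Figure D5:**
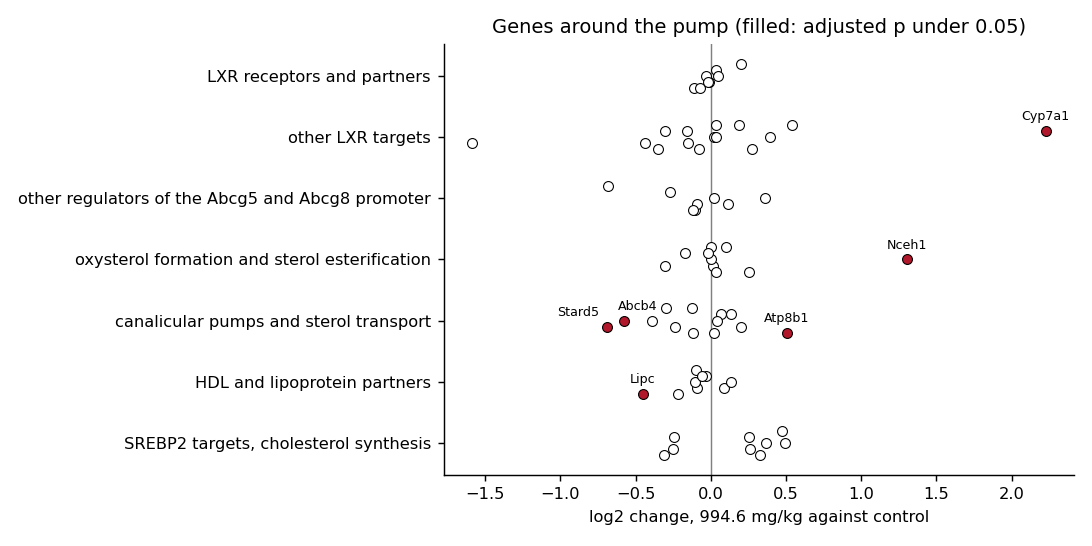
Log2 change at 994.6 mg/kg against control for each measured gene of the 7 lists, 1 row per list, with genes spread vertically within a row for legibility. Filled points are genes with a limma adjusted p under 0.05 over all genes. The called genes range from -0.69 (Stard5) to 2.23 (Cyp7a1), and the rows of LXR partners, promoter regulators and SREBP2 targets hold none.

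The genes most like the pump were found by Pearson correlation over the 20 arrays with the mean of the standardised Abcg5 and Abcg8 values. Of 13977 genes compared, Cbs (r = 0.903), the cystathionine synthase, Syne1 (0.899), Agmat (0.889), Wbp1l (0.878) and Fchsd2 (0.876) were most alike, and the 99th percentile of all genes was 0.725. Ces2c, a carboxylesterase (-0.895), Rhbdf2 (-0.890), the conjugate exporter Abcc3 (-0.870), Synpo (-0.850) and Casp4 (-0.844) were the most opposite. The arrays share the dose groups, so genes that change with dose rank high by this measure. Within the set, r with the pump was 0.531 for Pltp, -0.12 for Abca1, -0.26 for Mylip and -0.337 for Abcg1.

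With group means removed other genes led. Dgkd, a diacylglycerol kinase (0.855), Impa2 (0.811) and the mitochondrial channel Vdac1 (0.797) varied most like the pump among livers of the same dose, and Bptf (-0.804), Zranb1 (-0.799) and Ppp2r5c (-0.790) most oppositely, with 0.631 as the 99th percentile of all genes. These 6 genes changed by -0.33 to 0.35 at 497.3 mg/kg, and none was called.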

How the data were processed

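Per the submitters' processing notes, the deposited log2 values were made by the authors with RMA, which corrects background, normalizes quantiles and summarizes probe sets; the sources used here give no version of it. Per the labels, RNA was extracted from the left liver lobe, amplified and biotin-labelled. The number of arrays limits the precision. Of 31042 probe sets other than 57 controls, 20826 had 1 gene symbol in the platform annotation, 436 several and 9780 none here. The probe set of highest mean stood for its gene, and low values were not filtered. Means of the 6 groups were fitted with limma 3.58.1 (R 4.3.3) to all 14217 genes, with Benjamini-Hochberg adjustment within each comparison. The trend used dose steps 0 to 4. Within-array differences had exact permutation tests, and correlations 100000 permutations within groups, with fewer permutations where the correlation was repeated under an alternative or on fewer arrays.

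The members and lists were chosen with earlier results of these data known. Named genes were all members, up to 4 called genes per list at 994.6 mg/kg (or the 2 with the largest change), 7 genes always named, and the genes most and least like the pump. Scd, Insig1, Epcam, Alas2, Hbb, Ahsp, Alb and Ttr were named outside that rule. The planned comparison of the proteins was not run, nor the planned test of Abcg5 against Abcg8 at 994.6 mg/kg, the dose that chose the members. Scripts were tested on simulated data. Alternatives were probe set averaging, quantile normalization, median centring, a filter on the lowest 50% of genes, eBayes settings, array weights, a replicate block (without control replicates 4 and 5), the GAPDH covariate, only the groups compared, and each array left out.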

Additional observations from a re-analysis of the deposited data

Results flagged for a closer look

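Among 30 gene values tested in the 5 control arrays, 1 control array lay far from the others. Abcb4, the phosphatidylcholine exporter of the canalicular membrane, had a log2 value of 10.362 in control replicate 2, against 10.256 to 10.272 in the other control arrays. The gap to the nearest of them was 0.849 of the whole range, above Dixon's critical value of 0.71. By chance about 1 in 20 such groups is flagged, and the step is small beside the fall of Abcb4 by 0.58 at 994.6 mg/kg.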

How the results depend on the processing

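The falls of Abcg5 and Abcg8 at 497.3 mg/kg and in the trend kept their direction under every alternative run, at -2.12 to -1.61 and -1.82 to -1.57 at 497.3 mg/kg, and only the call of Abcg5 at 497.3 mg/kg without replicate 3 of that dose ended (-1.71, limma adjusted p = 0.0548). Members called at 497.3 mg/kg thus numbered 1 to 2 with 1 array left out, and 1 there and 1 in the trend without the lowest 50% of genes, which removes Abcg8 from the test. No label says whether the replicate numbers pair the samples, and these data do not settle it. Deviations of same-numbered arrays correlated at -0.382 to 0.366 in 45 pairs, and 12 of 18 arrays correlated best with their own number, a hint from the data only. With the replicate block 1 member was called at 248.6 mg/kg (Abcg5, -1.47, limma adjusted p = 0.0211), Abcg5 stood at -2.12 and Abcg8 at -1.82 at 497.3 mg/kg, their correlation was 0.877, and the call of Cyp7a1 at 497.3 mg/kg ended (1.49, limma adjusted p = 0.117).

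Genes near 0 changed sign, none of them called. At 124.5 mg/kg Abca1 stood at 0.034 with the mean of probe sets, 0.12 with array weights, 0.14 with the replicate block and -0.18 to 0.13 with 1 array left out, and Abcg1 at 0.042 with the mean of probe sets and -0.19 to 0.079 with 1 left out. At 248.6 mg/kg Abca1 stood at -0.042 with the GAPDH covariate and -0.12 to 0.21 with 1 left out, and Abcg1 at 0.013 with the mean of probe sets. At 497.3 mg/kg Abcg1 stood at -0.036 with the mean of probe sets and -0.043 to 0.12 with 1 left out. With 1 array left out Pltp ran from -0.011 to 0.12 at 62.3, -0.20 to 0.022 at 248.6 and -0.024 to 0.14 at 497.3 mg/kg, Abcg1 from -0.065 to 0.098 at 62.3 mg/kg and Mylip from -0.00080 to 0.32 at 124.5 mg/kg. The trend slope of Abcg1 was -0.0066 with the mean of probe sets, -0.0046 with quantile normalization and -0.022 to 0.014 with 1 left out, and that of Pltp 0.00092 with array weights and -0.021 to 0.0045. The difference of Abcg8 from Abca1 at 497.3 mg/kg stood at -1.65 with the mean of probe sets.

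At 994.6 mg/kg Med1 stood at 0.029 with the mean of probe sets, 0.13 with the replicate block and -0.25 to 0.048 with 1 left out; Nr1h3 at -0.012 with quantile normalization and -0.0021 to 0.078; Nr1h2 at 0.0076 with the mean of probe sets, 0.16 with array weights, 0.059 with the covariate and -0.15 to 0.049; Nr0b2 at 0.14 with array weights and -1.15 to 0.24. Hnf4a stood at 0.0055 with the mean of probe sets, and Abcb11 at -0.033 with the replicate block and -0.019 to 0.083 with 1 left out.

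Counts of list genes called moved more. Other LXR targets at 497.3 mg/kg numbered 1 with median centring, the replicate block or the covariate, 0 with trend and robust eBayes and 0 to 2 with 1 left out. At 994.6 mg/kg they numbered 2 with quantile normalization, the replicate block or the covariate, 6 with array weights and 1 to 2 with 1 left out. Array weights called 1 promoter regulator, 3 oxysterol genes, 5 canalicular genes, 3 HDL partners and 2 SREBP2 targets at 994.6 mg/kg, and 1 SREBP2 target at 497.3 mg/kg. The replicate block gave 0 oxysterol genes and 1 canalicular gene, and trend and robust eBayes 2 HDL partners. With only the groups compared 1 oxysterol gene and 1 SREBP2 target were called at 497.3 mg/kg. With 1 array left out the ranges at 994.6 mg/kg were 0 to 1 for oxysterol genes, 0 to 4 for canalicular genes, 0 to 2 for HDL partners and 0 to 1 for SREBP2 targets, and at 497.3 mg/kg 0 to 1 for SREBP2 targets. The causes were not tested.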
